A study of Mus musculus with 4 samples.

Results

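MHC class I molecules are surface proteins built from a polymorphic heavy chain and a small invariant partner, beta-2 microglobulin. The classical heavy chains display peptides cut from proteins inside the cell to CD8 T cells, and the non-classical chains are read by narrower sets of receptors on NK cells, gamma-delta T cells and other lymphocytes. Nearly all nucleated cells carry class I molecules, and type I and type II interferon raise transcription of these genes. The 9 genes described here are the classical chains H2-K1 and H2-D1, the non-classical chains H2-Q4, H2-Q6, H2-Q7, H2-T22, H2-T23 and H2-M3, and B2m, the gene of beta-2 microglobulin. They were chosen by gene symbol, with earlier results of these data known. Each symbol gave 1 Ensembl identifier among the 46603 of the unfiltered table. All 9 were also among the 12850 identifiers that the authors kept in their filtered table, with 635 or more reads in every library.

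RNA of whole lung was sequenced in 4 libraries, 2 of the SA genotype and 2 of the WT genotype. The SA mice carry Ifnar1 S526A, an allele that puts alanine in place of a serine in IFNAR1, a chain of the type I interferon receptor, and the WT mice are their Ifnar1+/+ littermates. All animals were C57BL/6 mice aged 6 to 8 weeks, and all received 100 µl of B16F10 conditioned medium (B16F10 is a melanoma line of the mouse) into a vein 3 times a week for 3 weeks. No group without conditioned medium was analysed here, so every difference is one between genotypes under that treatment. Phosphorylation of that serine is known to start removal of the receptor from the cell surface, and the series title names loss of IFNAR1 as its subject. The labels give no animal numbers and do not say whether the SA mice carry 1 or 2 copies of the allele. The design text calls the 2 libraries of a genotype biological replicates, and the spread between these libraries may be technical in part. The p-values and SE given here rest only in part on a gene's own spread. The limma fit draws that spread toward a trend of variance with level over all genes.

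The libraries held 27381916 and 38378936 gene reads in SA and 30611946 and 31645038 in WT. Genes that define lung tissue were abundant in all 4, with the surfactant gene Sftpc at 14.08 and 13.77 log2 CPM in SA and 14.12 and 13.77 in WT. CPM is a gene's reads scaled to the total of its library. Markers of heart and skeletal muscle differed most among the marker lists and summed to 2622 and 4027 CPM in SA and 1044 and 1576 CPM in WT. In bulk tissue, fewer cells of a type and less RNA per cell cannot be told apart.

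The promoters of the chains share short elements, which are shown here because all members were higher in SA. The 250 bases before the RefSeq start site (GRCm38.p6) were searched on both strands for each of the 9 members. H2-K1 had 2 such windows, and the one with its start nearest the GENCODE gene start was used. The IRF half-site AANNGAAA, the core letters read by interferon regulatory factors, occurred in 9 of the 9 members and in 21.3% of the 32851 promoter windows of the mouse. The longer core of the interferon-stimulated response element, made of a pair of GAAA blocks with 2 free bases between them and containing that half-site, occurred in 3 members (H2-T22, H2-T23 and B2m) and in 2.98% of windows. The kB-type decamer that stands in capitals at the left of the H2-K1 line occurred in 3 members (H2-K1, H2-D1 and H2-Q6) and in 0.0852% of windows. Below, 30 bases of each member are given 5′ to 3′ on the strand of the gene, with matches to these 3 motifs in capitals. For H2-D1 and H2-T23 these bases lie inside the gene as GENCODE M21 bounds it, because its start lies further upstream than that of RefSeq. The gene positions given further on are those of GENCODE. A half-site in the opposite orientation reads TTTCNNTT.
H2-K1 (chr17:34000429-34000458, minus strand): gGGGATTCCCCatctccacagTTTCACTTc
H2-D1 (chr17:35262923-35262952, plus strand): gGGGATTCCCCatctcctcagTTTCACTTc
H2-Q4 (chr17:35379443-35379472, plus strand): ggggatttcccatctccccagTTTCACTTc
H2-Q6 (chr17:35424677-35424706, plus strand): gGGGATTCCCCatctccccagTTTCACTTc
H2-Q7 (chr17:35439021-35439050, plus strand): tggggattcccatctccccagTTTCACTTc
H2-M3 (chr17:37270112-37270141, plus strand): attcccccatttcctctgaggTTTCACTTc
H2-T22 (chr17:36042924-36042953, minus strand): agagtccctaattggcttagTTTCACTTTC
H2-T23 (chr17:36032816-36032845, minus strand): atgaaaagggatcctactgcTTTCTCTTTC
B2m (chr2:122147548-122147577, plus strand): GAAACTGAAAatgggaaagtccctttgtaa

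The stretches of H2-D1 and H2-Q6 each differ from that of H2-K1 at 1 of 30 positions, and that of H2-Q4 at 2. The half-site form TTTCACTT followed by CT, picked as a motif after the sequences were seen, occurred in 6 members (H2-K1, H2-D1, H2-Q4, H2-Q6, H2-Q7 and H2-M3) and in 0.131% of windows on either strand. The motif overlaps the IRF half-site. In H2-K1 the kB-type decamer lies at positions -110 to -101 from the start and the half-site at -90 to -83. TGACG, the core of the CREB-type element known as X2 in MHC promoters, occurred in 7 members and in 17.8% of windows. CCAAT, the letters of the Y box, occurred in 9 members and in 33.8% of windows. The place of TGACG beside CCAAT, or its reverse form ATTGG, was not the same in all members. In H2-K1 and H2-D1 TGACG lies before ATTGG. In H2-Q4 it lies at -73 to -69, after ATTGG at -79 to -75. In H2-T22 it lies at -22 to -18, after every CCAAT match. The count of TGACG is thus one of letters and not of an element at a shared place. A looser kB-like pattern of GGG, 5 free bases and CC, which overlaps the decamer, occurred in 8 members and in 45.8% of windows. A match of letters is a description and not evidence of binding. The promoter of B2m, the member that lies outside the MHC, is shown next over 200 bases before its start, together with those of H2-K1 and H2-T22, to give the surroundings of the capitals.
H2-K1 (chr17:34000348-34000547, minus strand): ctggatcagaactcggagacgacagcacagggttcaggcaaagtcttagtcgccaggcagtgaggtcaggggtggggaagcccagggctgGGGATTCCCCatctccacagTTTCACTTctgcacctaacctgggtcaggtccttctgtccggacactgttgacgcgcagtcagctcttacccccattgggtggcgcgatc
H2-T22 (chr17:36042743-36042942, minus strand): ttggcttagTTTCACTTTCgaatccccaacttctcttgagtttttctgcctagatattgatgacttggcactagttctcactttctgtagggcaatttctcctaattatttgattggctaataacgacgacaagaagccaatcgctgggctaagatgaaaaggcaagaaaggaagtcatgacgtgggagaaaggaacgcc
B2m (chr2:122147487-122147686, plus strand): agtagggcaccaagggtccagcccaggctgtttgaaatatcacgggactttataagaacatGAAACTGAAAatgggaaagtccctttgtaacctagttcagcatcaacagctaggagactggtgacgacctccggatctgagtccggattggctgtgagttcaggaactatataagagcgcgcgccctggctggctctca

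All 9 members were higher in SA lungs, by 1.29-fold for H2-D1 to 1.93-fold for H2-T22. For each of them both SA libraries lay above both WT libraries, a separation seen upward in 37.8% and downward in 22.9% of the genes tested. A difference above 0 was seen in 60.4% of genes. The median difference of the 9 was 0.61 on the log2 CPM scale, beside 0.06 over all 12850 genes. Because the members were chosen with earlier results known, setting them beside all genes is description and no test of the list. After adjustment over all genes, 2 members passed the threshold (limma, Benjamini-Hochberg adjusted p under 0.05), H2-T22 and H2-Q6, and both rose. Of all genes tested, 0.163% passed upward and 0.148% downward, or 0.311% in all. At an unadjusted p under 0.05 there were 9 of the 9 members, beside 16.4% of genes upward and 10.9% downward. In the unfiltered table, fitted over 46603 genes, 8 of the 9 passed upward, beside 3.21% of genes. Together the 9 genes took 0.435% and 0.441% of all gene reads in SA, against 0.304% and 0.294% in WT.

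**Figure D1:**
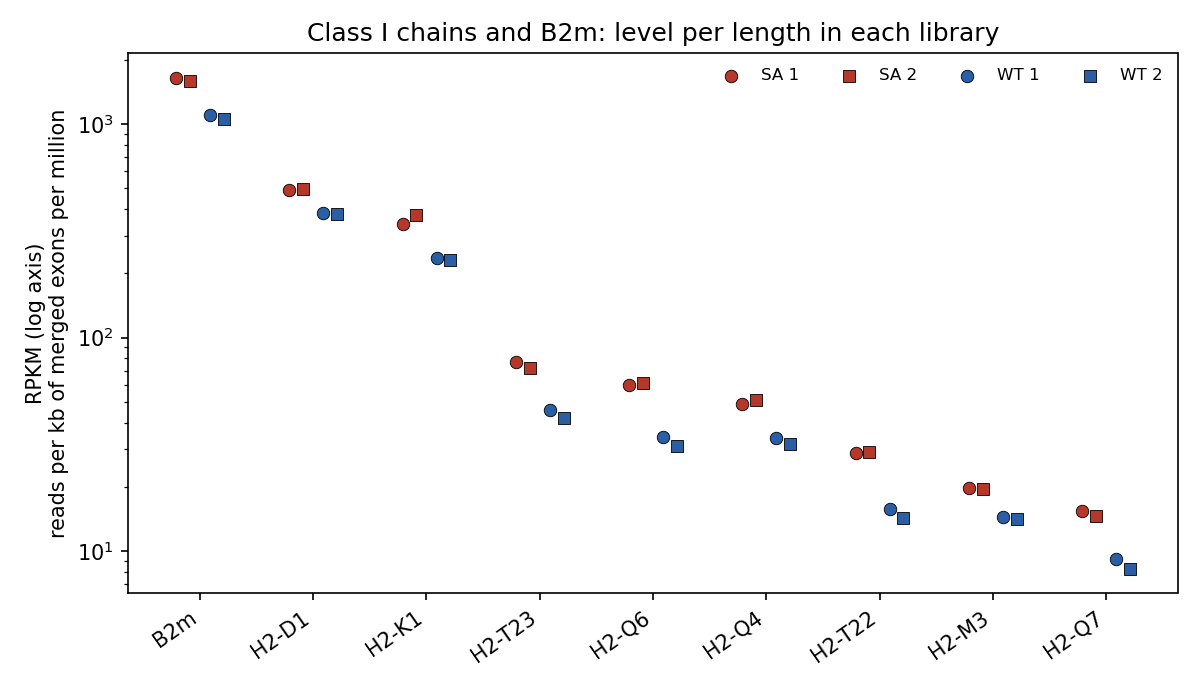
Level of each member in the 4 libraries, as reads scaled to merged exon length and to the library total (RPKM, log axis); circles and squares are libraries 1 and 2 of each genotype, SA in red and WT in blue. Both SA points lie above both WT points for each of the 9 genes, and B2m is highest at 1651 and 1591 RPKM in SA and 1103 and 1059 RPKM in WT.

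Levels of different genes were compared per length as RPKM, reads scaled both to the exons merged over all annotated transcripts and to the library total; the plot of levels by library shows them. The classical chains and B2m formed the top of the order in both genotypes. B2m had 1651 and 1591 RPKM in SA and 1103 and 1059 RPKM in WT, followed by H2-D1 with 489.5 and 497.1 RPKM in SA and 383.5 and 379.5 RPKM in WT. H2-K1 had 340.4 and 374.3 RPKM in SA and 236.2 and 230.3 RPKM in WT. The non-classical chains were far lower. H2-T23 led them at 77.2 and 71.9 RPKM in SA and 45.8 and 42.3 RPKM in WT, and H2-Q7 was lowest at 15.4 and 14.7 RPKM in SA and 9.21 and 8.28 RPKM in WT. Neighbours in this order did not overlap within the SA libraries. In WT, H2-Q4 (34.0 and 31.7 RPKM) overlapped H2-Q6 (34.1 and 31.1 RPKM), and H2-T22 (15.8 and 14.3 RPKM) overlapped H2-M3 (14.4 and 14.2 RPKM). Merged exon length ranged from 860 bases for B2m to 4265 bases for H2-Q7, so the place of H2-Q7 depends on the annotated transcripts counted.

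H2-K1 encodes one of the classical chains of this strain and lies on the minus strand of chromosome 17 from 33996017 to 34000347 (GRCm38, GENCODE M21). Its log2 CPM was 9.966 and 10.103 in SA and 9.439 and 9.402 in WT. The groups did not overlap, and SA 2 was the highest library. The difference was 0.61 ± 0.10 (SE), or 1.53-fold, and its 95% interval ran from 0.35 to 0.88. The adjusted p was 0.060 (limma), which does not pass.

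H2-D1, the other classical chain, occupies 35262730 to 35267499 of chromosome 17 (plus strand). The deposited table gives its identifier a further symbol, H2-L, with equal values. Log2 CPM was 10.30 and 10.32 in SA and 9.95 and 9.93 in WT, so the libraries of a genotype were close together and the groups were apart. The difference of 0.37 ± 0.10 (SE), with a 95% interval from 0.10 to 0.64, was the smallest of the 9, and its adjusted p was 0.12 (limma). Its libraries had an SD of 0.016 in SA and 0.011 in WT, so this SE comes largely from the variance trend over all genes. Without that trend its unadjusted p was 0.0050, beside 0.018 with it, and its adjusted p was 0.097 (limma).

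H2-T22 encodes a non-classical chain that is known as a ligand of a subset of gamma-delta T cells in mice. It lies on the minus strand of chromosome 17 from 36037128 to 36042747, and its line in the table also bears the symbol H2-T9. Its log2 CPM was 6.63 and 6.63 in SA and 5.75 and 5.61 in WT, the widest separation of the 9. It rose by 0.95 ± 0.07 (SE; 95% interval 0.76 to 1.14; adjusted p = 0.043, limma).

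H2-Q6 belongs to the Q region chains that include the Qa-2 antigen, a class I form anchored in the membrane by a lipid. It occupies 35424850 to 35430055 of chromosome 17 (plus strand), and the same line bears the symbol H2-Q8. Log2 CPM stood at 6.97 and 7.01 in SA and 6.15 and 6.02 in WT, with no overlap. It rose by 0.90 ± 0.07 (SE; 95% interval 0.72 to 1.08; adjusted p = 0.043, limma). H2-Q7, another gene of the Qa-2 antigen, is on the plus strand from 35439155 to 35443773. It had 6.04 and 5.97 log2 CPM in SA and 5.30 and 5.14 in WT, a difference of 0.78 ± 0.08 (SE; 95% interval 0.57 to 0.99; adjusted p = 0.0502, limma).

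H2-T23 encodes Qa-1, which presents leader peptides of other class I chains to the CD94-NKG2 receptors of NK cells. The gene is on the minus strand of chromosome 17 from 36029773 to 36032855. Its log2 CPM was 7.80 and 7.70 in SA and 7.05 and 6.93 in WT. The groups were apart, with a difference of 0.76 ± 0.07 (SE; 95% interval 0.56 to 0.96; adjusted p = 0.0502, limma). H2-Q4, a Q region chain on the plus strand from 35379617 to 35385290, had 6.98 and 7.05 log2 CPM in SA and 6.46 and 6.36 in WT. The difference was 0.61 ± 0.06 (SE; 95% interval 0.43 to 0.78) at the same adjusted p of 0.0502 (limma).

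H2-M3 presents peptides that begin with N-formyl-methionine, as those of bacteria and mitochondria do. It occupies 37270220 to 37274484 of chromosome 17 (plus strand). Its log2 CPM was 4.84 and 4.82 in SA and 4.38 and 4.35 in WT. The difference was 0.47 ± 0.07 (SE; 95% interval 0.28 to 0.65; adjusted p = 0.058, limma), the smallest among the non-classical chains.

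B2m, the partner of all these chains, occupies 122147686 to 122153083 of chromosome 2 (plus strand). It had 10.47 and 10.42 log2 CPM in SA and 9.89 and 9.83 in WT. The groups did not overlap, and the difference of 0.58 ± 0.10 (SE; 95% interval 0.30 to 0.86; adjusted p = 0.068, limma) lay within the range of the heavy chains. The light chain gene and the chromosome 17 chains were thus higher in the same libraries.

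**Figure D2:**
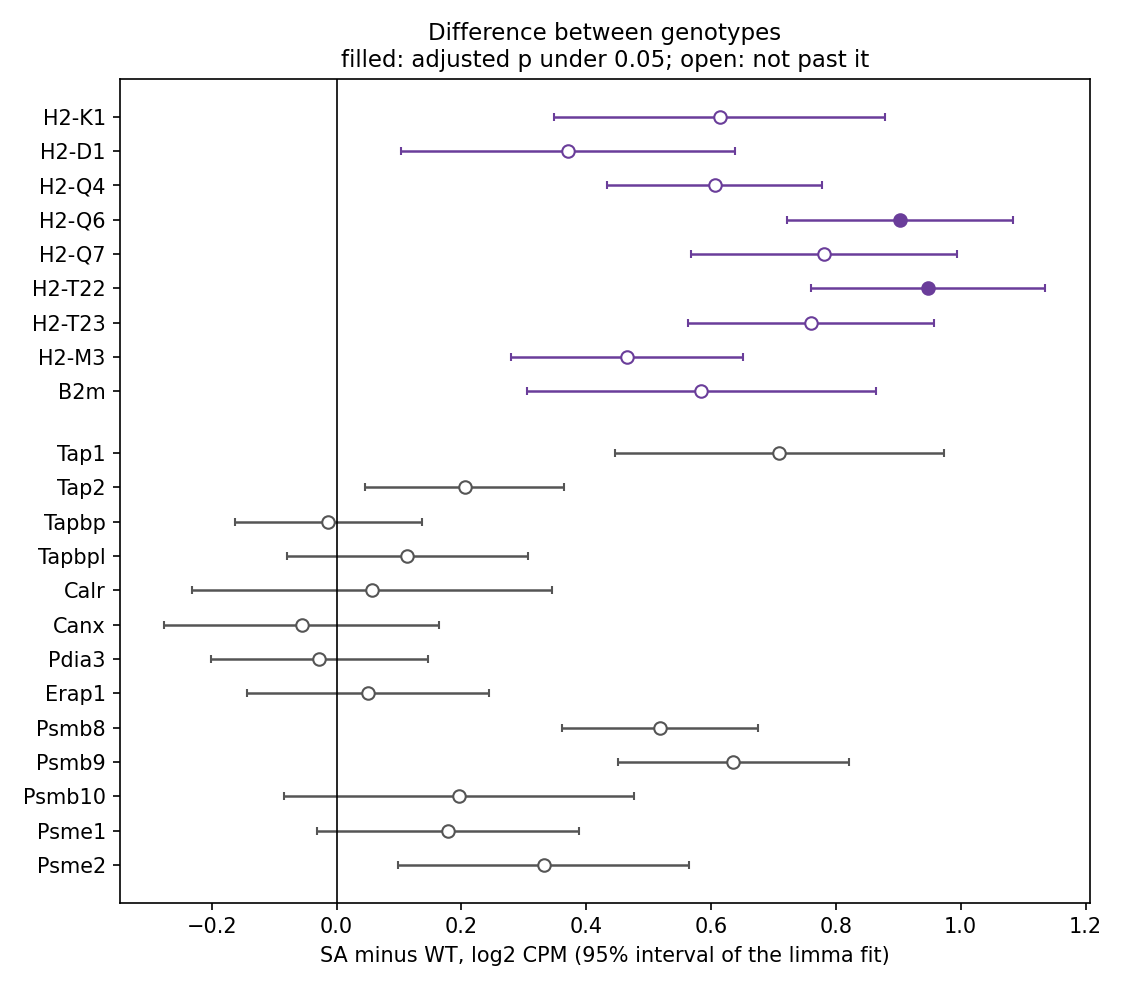
Difference between genotypes, SA minus WT in log2 CPM, with the 95% interval of the limma fit, for the 9 members (violet, above) and 13 genes of peptide supply and loading (grey, below); filled points passed the adjusted threshold. The 9 members lie between 0.37 and 0.95, and the 13 genes between -0.06 and 0.71.

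The threshold fell in a dense part of the ranking. H2-Q4, H2-Q7 and H2-T23 stood at an adjusted p of 0.0502, just above it, and 318 genes had an adjusted p at most that high, or 2.47% of those tested, with 1.32% of genes among them higher in SA. By limma, H2-T22 and H2-Q6 no longer passed when SA 1, SA 2 or WT 1 was left out (adjusted p of 0.17, 0.22 and 0.25 for each gene) or when WT 2 was left out (0.10 for each). Without any 1 library the difference of H2-T22 stayed between 0.88 and 1.02 and that of H2-Q6 between 0.84 and 0.97. The smallest two-sided p of an exact permutation test with 2 libraries in each group is 0.333, so all p-values rest on the model.

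H2-T22 and H2-Q6 had the largest differences of the 9, and their ratios to the classical chains are described here. The median difference was 0.77 over the 6 non-classical chains, with a range from 0.47 to 0.95, beside 0.37 and 0.61 for the classical chains. Of the reads on the 8 heavy chain genes, the non-classical chains held 22.8% and 21.7% in SA and 19.4% and 18.4% in WT. To compare genes within a library, the log2 CPM of H2-D1, and separately that of H2-K1, was subtracted from that of every gene and the ratios were fitted over the 12849 other genes. Both fits were added after the data were seen, and H2-D1 has the smallest difference of the 9, so its ratios were bound to be positive. The ratios of H2-T22 and H2-Q6 to H2-K1 were bound to be positive too, since their differences were already known to be larger. The p-values of these ratios are therefore description and no separate test of the contrast. As the plot of ratios by library shows, the ratio to H2-D1 was higher in SA by 0.58 ± 0.07 for H2-T22 (SE; adjusted p = 0.0096, limma) and by 0.53 ± 0.06 for H2-Q6 (SE; adjusted p = 0.0096). For H2-Q7, H2-T23 and H2-Q4 it was higher by 0.41, 0.39 and 0.24 (adjusted p = 0.019, 0.019 and 0.034). Of all genes, 2.17% passed upward in this fit. The ratio to H2-K1 was higher in SA by 0.33 ± 0.10 for H2-T22 (SE; adjusted p = 0.026, limma) and by 0.29 ± 0.10 for H2-Q6 (SE; adjusted p = 0.036), where 1.42% of genes passed upward. H2-K1 ranked 1122 and H2-D1 2069 from the top of 12850 differences, so most genes had a lower ratio in SA. Genes passing downward were not counted. The unadjusted p against H2-K1 was 0.016 for H2-T22 and 0.025 for H2-Q6 (limma). Adjustment thus changed it little, and p-values this low were more common than the upward share shows. Against H2-K1, H2-Q7, H2-T23, H2-Q4 and H2-M3 differed by 0.17, 0.15, -0.01 and -0.15, and none of these 4 passed (adjusted p = 0.23, 0.30, 0.94 and 0.30, limma). Whether the ratios of H2-Q7, H2-T23 and H2-Q4 passed thus depended on which of the classical chains was used.

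For H2-M3 the ratio to H2-D1 differed by 0.09, with a 95% interval from -0.10 to 0.29 (adjusted p = 0.32, limma). H2-K1 differed from H2-D1 by 0.24, with an interval from -0.02 to 0.50 (adjusted p = 0.099), and B2m by 0.21, with an interval from -0.08 to 0.50 (adjusted p = 0.16). These 3 did not pass, and the intervals still allow a difference of up to 0.50 for H2-K1 and B2m. In the fit of ratios to H2-K1, the pair of classical chains gave a wider interval, from -0.68 to 0.19 for H2-D1 over H2-K1, since each fit has its own variance trend. There B2m differed by -0.03, with an interval from -0.48 to 0.42 (adjusted p = 0.89).

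**Figure D3:**
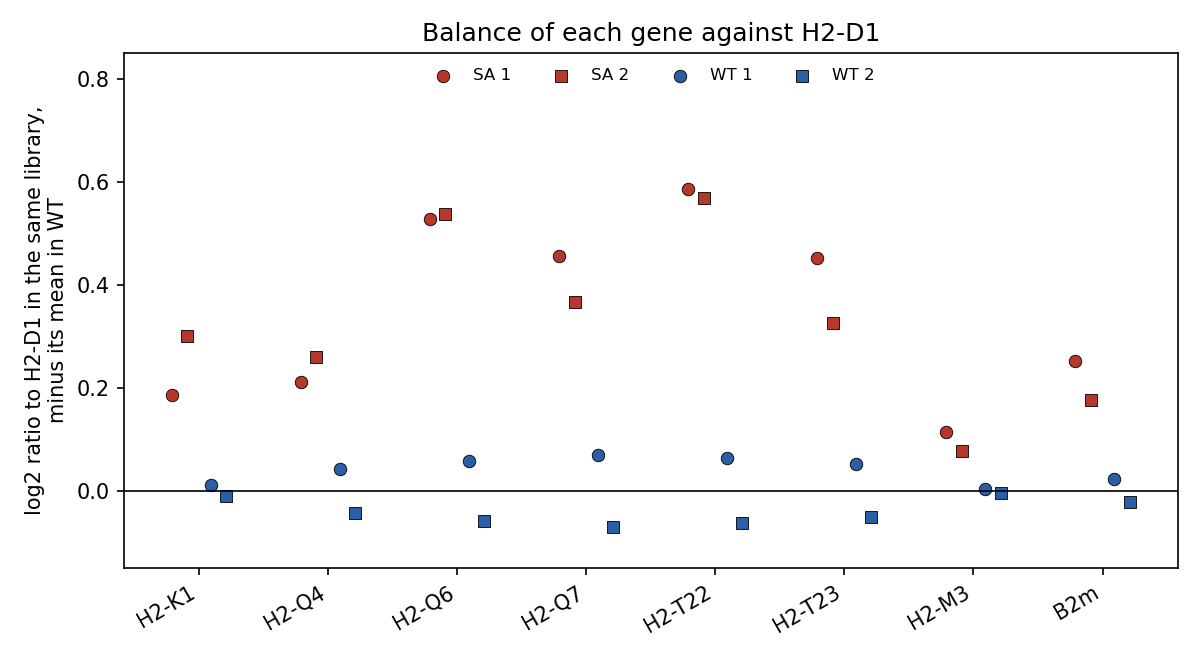
Log2 ratio of each gene to H2-D1 within the same library, set to the mean of the WT libraries; circles and squares are libraries 1 and 2, SA in red and WT in blue. Both SA libraries lie above both WT libraries for the 8 genes, and the fitted differences run from 0.09 for H2-M3 to 0.58 for H2-T22.

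Class I genes are close copies of each other, and the sources used here do not give how reads matching several genes were counted. Windows of 50 and of 100 bases were therefore taken from the GENCODE transcripts of each member and looked up in the transcripts of all other genes. H2-T22 had the highest share of 50-base windows found in another gene, 34.5%, with H2-T10 as the main partner, and H2-Q6 followed with 32.0%, spread over 39 genes, with H2-Q7 holding the most, 13.9% of the windows of H2-Q6. The 50-base shares of H2-Q7, H2-Q4 and H2-T23 were 26.4%, 21.8% and 13.6%. At 100 bases the shares were 8.86% for H2-T22, 10.8% for H2-Q6, 12.0% for H2-Q7, 2.16% for H2-Q4 and 3.15% for H2-T23. For H2-K1 and H2-D1 they were 9.63% and 12.8% at 50 bases and 0.957% and 3.59% at 100 bases. H2-M3 shared 0.576% of its 50-base windows, and B2m shared 0%. The genes that passed thus were among those with the most shared sequence. The values of H2-T22, H2-Q6, H2-Q7 and H2-Q4 are uncertain where reads could be split between copies. B2m and H2-M3, whose reads are nearly all their own, differed by 0.58 and 0.47.

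Peptides reach class I molecules through the proteasome, the TAP transporter and a loading complex in the endoplasmic reticulum. Of 13 genes of this route, drawn in grey in the plot of differences, 0 passed over all genes by limma, 10 were higher in SA and 3 lower, and the median difference was 0.18. At an unadjusted p under 0.05 there were 5, all higher. Tap1, a subunit of the peptide transporter, had 6.25 and 6.29 log2 CPM in SA and 5.44 and 5.68 in WT (difference 0.71 ± 0.10 SE, adjusted p = 0.052). Psmb9 and Psmb8, catalytic subunits of the immunoproteasome, differed by 0.64 ± 0.07 and 0.52 ± 0.06 (SE; adjusted p = 0.0502 for each). Both SA libraries were above both WT libraries for these 3 genes. The loading chaperones showed differences near 0, among them Tapbp, the tapasin gene, at -0.01, Calr at 0.06, Pdia3 at -0.03 and Canx at -0.06.

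Among 15 regulators of class I transcription, 0 passed by limma over all genes, and 7 had an unadjusted p under 0.05, of which 6 were higher and 1 was lower. Irf9 and Stat2, which act together downstream of the type I interferon receptor, differed by 0.66 and 0.59 (adjusted p = 0.0502 for each). Nlrc5, the transactivator of class I genes, had 4.90 and 5.01 log2 CPM in SA and 4.59 and 4.71 in WT, a difference of 0.30 ± 0.09 (SE; adjusted p = 0.13). Rela, an NF-kB subunit, was lower in both SA libraries, by -0.51 ± 0.06 (SE; adjusted p = 0.0502). Irf1 differed by 0.04. Of 8 measured interferon markers 4 passed, all upward, and Irf7 stood at 1.88 and Ifit1 at 1.89, both above the 0.95 of H2-T22.

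Other proteins with a class I fold, most of which pair with beta-2 microglobulin, differed less evenly. Of 5 such genes, 0 passed by limma and 2 had an unadjusted p under 0.05. Mr1, which presents vitamin B metabolites, differed by 0.39 ± 0.10 (SE; adjusted p = 0.11), and Azgp1, a secreted class I relative that is known to fold without beta-2 microglobulin, by 0.76 ± 0.17 (SE; adjusted p = 0.091). Fcgrt, the neonatal Fc receptor chain, differed by -0.04 and Hfe, a regulator of iron uptake, by 0.07. The median over the 5 was 0.14.

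Marker lists of cell types are given beside these differences, and their part in the result was not tested. Their sums are levels of RNA and not counts of cells. The plot of list means gives 9 of the lists. Markers of all leukocytes summed to 430.9 and 406.3 CPM in SA and 424.9 and 412.9 CPM in WT, with 3 of 5 higher and 2 lower. T cell markers summed to 13.2 and 13.3 CPM in SA and 8.66 and 9.83 CPM in WT, with 4 of 5 higher. NK cell markers summed to 19.5 and 15.7 CPM in SA and 11.9 and 10.6 CPM in WT, with 5 of 5 higher. B cell markers summed to 44.2 and 53.2 CPM in SA and 26.2 and 61.3 CPM in WT. Macrophage and monocyte markers summed to 1174 and 1009 CPM in SA and 1054 and 857.9 CPM in WT, with 4 of 7 higher. Dendritic cell markers summed to 76.9 and 70.5 CPM in SA and 88.1 and 87.5 CPM in WT, with 3 of 5 lower. Neutrophil markers summed to 32.3 and 27.6 CPM in SA and 32.2 and 24.2 CPM in WT, with 3 of 5 higher.

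Endothelial markers were lower in SA in 6 of 6, with sums of 2411 and 2096 CPM in SA against 3226 and 2817 CPM in WT. Alveolar type 1 and type 2 markers were each lower in 5 of 5, fibroblast markers in 3 of 4 and red cell markers in 3 of 3, while club and ciliated cell markers were higher in 4 of 4. The muscle list was higher in 8 of 8. Within a genotype it was higher in library 2 than in library 1, by mean log2 levels of 7.81 and 8.51 in SA 1 and SA 2 and 6.32 and 7.15 in WT 1 and WT 2. The mean log2 level of the 9 members was 7.78 and 7.78 in SA and 7.15 and 7.07 in WT.

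**Figure D4:**
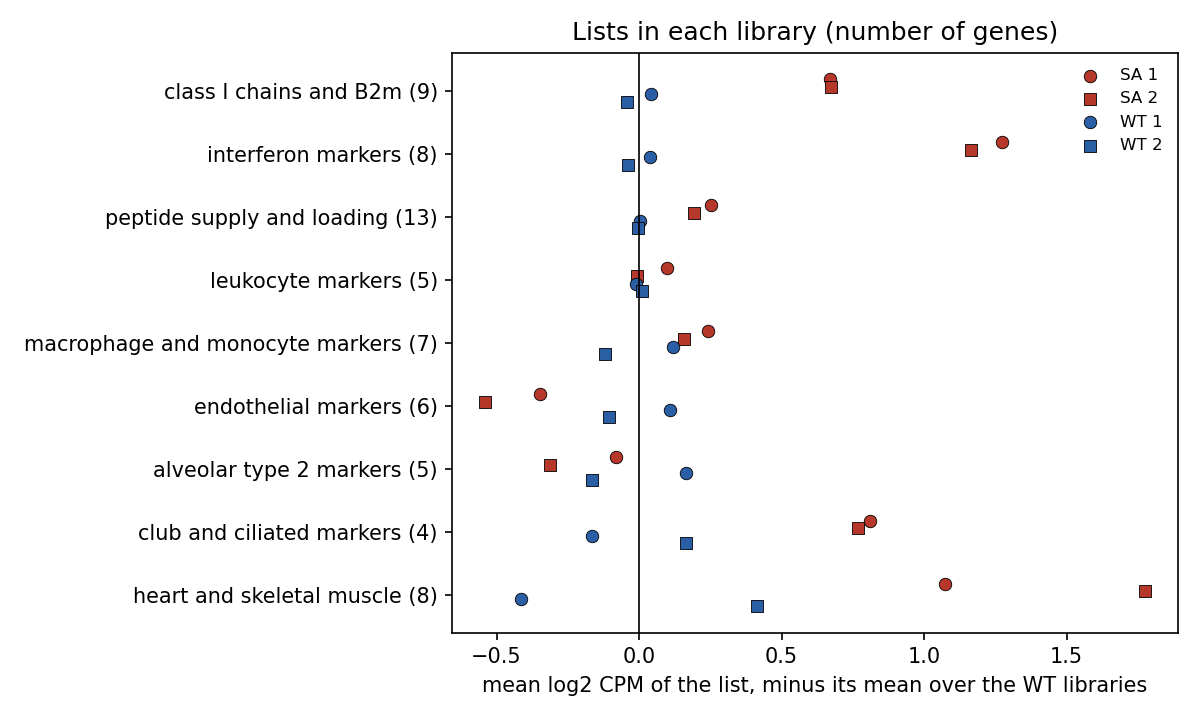
Mean log2 CPM of each list in each library, minus its mean over the WT libraries, with the number of genes in brackets; circles and squares are libraries 1 and 2, SA in red and WT in blue. The class I members lie together within each genotype, at 7.78 and 7.78 in SA and 7.15 and 7.07 in WT before centring. The muscle list lies at 7.81 and 8.51 in SA and 6.32 and 7.15 in WT. The list of interferon markers includes the receptor chains Ifnar1 and Ifnar2.

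The 5 genes outside these lists whose values over the 4 libraries lay nearest to the mean profile of the members were Rpa3, Akr1b8, Sp100, Ppil6 and Trmt5. Likeness was measured as the Euclidean distance between profiles centred on each gene's own mean, and the distances were 0.029, 0.038, 0.055, 0.061 and 0.061 log2 units. Their differences between genotypes ranged from 0.62 for Trmt5 to 0.68 for Sp100. With 4 libraries in 2 groups, this likeness is mainly a similar size of difference.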

How the data were processed

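Libraries were strand-specific and made after ribosomal RNA removal, per the labels' protocols. The submitters' processing notes name Subread, featureCounts, limma and GRCm38 but no settings. The deposited files are a filtered and an unfiltered table of log2 CPM. From the values, the authors' log2 CPM rest on counts with 0.5 added. Solved for reads, 100% of values in each library were whole within 0.001 read. Repeated identifiers held equal values and were kept once.

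The genotypes were compared with limma 3.58.1 under R 4.3.3, using the filtered table and a model of genotype alone, with a mean-variance trend, two-sided tests and Benjamini-Hochberg adjustment over 12850 genes at 0.05. There were 2 residual and 2.25 prior degrees of freedom. The members and lists were chosen with earlier results of these data known. The named genes are all members, genes of the related lists and the 5 genes of most like profile. Alternatives were other scalings, filters, trends and read offsets, voom on the recovered reads, a replicate block and each library left out.

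Positions, exon lengths and transcripts came from GENCODE M21 and promoters from RefSeq (GRCm38.p6). With 27381916 to 38378936 reads per library, 3 reads correspond to 0.0782 to 0.110 CPM; this floor covers counting error only. A comparison of proteins between members was planned and not made. Python 3.11.15, pandas 2.3.3 and matplotlib 3.10.9 were used elsewhere.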

Additional observations from a re-analysis of the deposited data

Results flagged for a closer look

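Of the genes on the lists used here, 4 that the authors' filter left out passed the threshold when the unfiltered table was tested over 46603 genes (limma). In that fit 3.21% of genes passed upward, against 0.163% in the fit of the filtered table, so a pass there is easier to reach. For H2-Q6, with the same difference in both, the unadjusted p was 4.35e-08 in the unfiltered and 0.000117 in the filtered fit (limma). H2-T10, a class I gene close to H2-T22, had 159 and 216 reads in SA and 98 and 108 in WT, a difference of 0.79 ± 0.16 (SE; adjusted p = 0.0077). Reads of H2-T10 can be shared with H2-T22. Gzma, a granzyme of NK and T cells, had 290 and 331 reads in SA and 169 and 164 in WT, a difference of 0.84 (adjusted p = 0.0023, limma). Ncr1, a receptor that marks NK cells, had 51 and 60 reads in SA and 20 and 23 in WT, a difference of 1.29 (adjusted p = 0.024, limma). Cd3g, a T cell receptor subunit, had 103 and 176 reads in SA and 74 and 74 in WT, a difference of 0.80 (adjusted p = 0.021, limma). Other T cell and NK cell markers left out by the filter did not pass in that fit (adjusted p from 0.19 to 0.93, limma). Among the T cell markers, Cd3e differed by -0.24, Cd3d by 0.52 and Cd8a by 0.64. Among the NK cell markers, Prf1 differed by 0.09, Eomes by 0.18 and Klrb1c by 0.52.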

How the results depend on the processing

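Each member was higher in SA under each of the 14 alternatives run, with differences from 0.28 for H2-D1 to 1.02 for H2-T22. The number of members past the threshold was 2 in the fit reported. It was 5 with median centring, with 5 reads added, with voom on library totals and with voom on median-of-ratios scaling, 6 with genes of a mean of at least 1 log2 CPM, and 8 in the unfiltered table and with a robust trend. It was 0 with quantile normalization and with no trend, with 9 of 9 at an unadjusted p under 0.05 in both, beside 1312 and 2035 of all genes upward. It was 0 without SA 1, SA 2, WT 1 or WT 2, with 8 of 9 at an unadjusted p under 0.05 in each, beside 1074 to 1669 of all genes upward, and the cause of these changes was not tested. The lone library left in a group is assumed to vary like the others. Over all genes the upward count was 21 in the fit reported, 169 with median centring, 183 with 5 reads added, 157 with voom on library totals, 1496 in the unfiltered table, 331 with a robust trend, 217 after the filter on the mean, 1 with no trend, 0 with quantile normalization, and 0 to 6 with a library left out. Against 21 higher and 19 lower genes in the fit reported, median centring gave 169 higher and 307 lower, and voom scaled by median-of-ratios gave 165 higher and 245 lower. With median centring the median difference was 0.52 for the 9 members, 0.40 for the classical and 0.68 for the non-classical chains. With a library left out it ranged from 0.60 to 0.68, from 0.45 to 0.53 and from 0.70 to 0.84. With the replicate number as a block, 9 members passed and 1973 genes passed upward. The labels give the libraries only a number, and the within-genotype differences correlated at 0.436 over 12850 genes. That is a hint from 2 pairs that libraries of the same number share something, and the labels do not say what. Depth does not limit the members, which had 635 or more reads, but H2-M9, Ifnb1 and Ifng had 0 to 29 reads.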

Other observations

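Of the class I genes that are not members, 5 were in the filtered table, and all 5 were higher in SA (median difference 0.50), while 0 passed over all genes by limma and 2 had an unadjusted p under 0.05. H2-Q5 had 3.79 and 3.66 log2 CPM in SA and 2.85 and 3.17 in WT, a difference of 0.71 ± 0.15 (SE; adjusted p = 0.087). H2-T24 had 5.82 and 5.51 log2 CPM in SA and 5.14 and 5.02 in WT, a difference of 0.59 ± 0.13 (SE; adjusted p = 0.087).

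A pair of class I genes separated the libraries by number and not by genotype. They were chosen on sight of their values. H2-Q10, known as a secreted class I chain made in liver, had 99 and 370 reads in SA 1 and SA 2 and 74 and 266 reads in WT 1 and WT 2. H2-M9 had 0 and 14 reads in SA 1 and SA 2 and 0 and 29 reads in WT 1 and WT 2. Among the receptors that read class I, Cd8a had 69 and 79 reads in SA and 48 and 43 in WT (difference 0.64, adjusted p = 0.19 in the unfiltered table, limma), and Cd8b1 had 71 and 97 reads in SA and 45 and 49 in WT (difference 0.76, adjusted p = 0.075).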
